A study of Homo sapiens with 21 samples.

Results

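Cells damaged by hydrogen peroxide (H2O2) were compared with cells damaged by neocarzinostatin (NCS) at the earliest treated time point, 4 h, gene by gene. The comparison took the 3 H2O2 and the 3 NCS libraries of that time, 6 of the 21 in the series, and every gene whose value varied, which was 19694 of the 23368 listed. The cells were hTERT-HPNE, a single line of nontransformed human pancreatic cells immortalized with telomerase and grown in medium with epidermal growth factor. One day after plating they received fresh medium with 300 μM H2O2 or 400 ng/ml NCS, and RNA was taken after 4, 8 or 24 h, or at 0 h from untreated cells, with 3 biological replicates of each of the 7 groups. The doses are of different agents and no second dose was sequenced, so a difference between the agents and a difference in the strength of the dose cannot be told apart. Untreated cells were collected at 0 h only, and a change from them therefore holds the treatment, the fresh medium and 4 h of culture together. RNA came from the whole plate, where fewer cells of a kind and less RNA per cell cannot be told apart. The study asked how the MAP kinases ERK, JNK and p38 and the transcription factor p53 together shape the response to each stress.

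NCS is a radiomimetic antibiotic that cuts DNA and generates double-strand breaks, which the kinases ATM and DNA-PK detect and pass on to p53. H2O2 also breaks DNA, but in addition oxidizes cysteines in many proteins, among them the protein tyrosine phosphatases and the peroxiredoxins that hold MAP kinase pathways in check, and KEAP1, which otherwise marks the transcription factor NRF2 for destruction. Stress on protein folding or on amino acid supply acts through phosphorylation of eIF2, which lowers protein synthesis in general and raises translation of ATF4, the factor behind the integrated stress response. Each of these routes has its own well-known target genes, and the results below follow those targets.

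The values are log2 expression values after the authors' regularized log (rLog) transformation, which pulls the differences of genes with few reads toward 0. A difference is the mean of the 3 H2O2 values minus the mean of the 3 NCS values, so a positive difference means higher after H2O2, and the adjusted p-values come from limma. A gene was called when its difference exceeded 1 in size with an adjusted p-value under 0.05, and "higher" or "lower" without the word called refers to the adjusted p-value alone. Values of different genes were not scaled by gene length, so tests compare the same gene between groups, and an order of genes by value, as in the marker sums and the split into low and high genes, mixes expression with length. The median values of the 6 libraries lay between 7.165 and 7.176, no read totals come with these values, and the depth of each library is therefore unknown. The Euclidean distance between replicates over all varying genes was 10.5 to 10.8 within H2O2 and 8.94 to 9.66 within NCS, against 31.8 to 32.5 between the treatments. All 8 mesenchymal and nestin markers of the line were expressed, with the log2 of their summed level at 20.45 to 20.49 after H2O2 and 20.65 to 20.66 after NCS. Duct epithelial markers were at 11.93 to 11.98 and 11.98 to 12.04, led by KRT18, while 3 of their 9 members had means under 2. The acinar genes PRSS1, CELA3A, CELA3B and PTF1A and the endocrine genes INS, PDX1 and NKX6-1 were listed at 0 in every library. Leukocyte markers summed to 5.65 to 5.67 after H2O2 and 4.40 to 4.45 after NCS, where ITGAM carried the difference and CD3E was at 0, and endothelial markers summed to 4.12 to 4.23 and 3.91 to 4.00, where VWF was the highest. Their part in the results was not tested.

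At 4 h, 110 genes (0.559% of those tested) were called higher after H2O2 and 3 genes (0.0152%) were called higher after NCS. By the adjusted p-value alone, 5184 genes (26.3%) were higher and 3554 (18%) lower after H2O2, so that 59.3% of these differences were toward H2O2. That split depended on the scaling, since quantile normalization left 3984 higher and 4688 lower, or 45.9% toward H2O2. The H2O2 and NCS replicates did not overlap for 5598 genes (28.4%) with H2O2 above and for 4278 (21.7%) with H2O2 below, and all 113 called genes were among them. Most differences were small, with a median of 0.00512 and a median size of 0.0715. The calls leaned toward genes of low level, as 73 of the 110 had a mean value under 7 over the 21 libraries, although 10026 of the 19694 genes had a mean of 7 or more. Among genes with a mean from 2 to 5, 39.1% were higher and 2.76% lower after H2O2, whereas from 7 to 9 the shares were 16.1% and 32.8%. They were 26.1% and 16.5% from 5 to 7, 20.1% and 34.1% from 9 to 11, and 33.9% and 26.3% at 11 or more. Under 2, 1557 genes (28.1%) were higher and 26 (0.469%) lower, with a median difference of 0.00521. With quantile normalization the shares were 21.1% and 32.6% from 2 to 5 and 22.2% and 26.5% from 7 to 9. The broad excess of low genes toward H2O2 on the deposited scale was thus lost with that scaling. Of the 110 genes called higher, 91 were also called after quantile normalization.

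**Figure D1:**
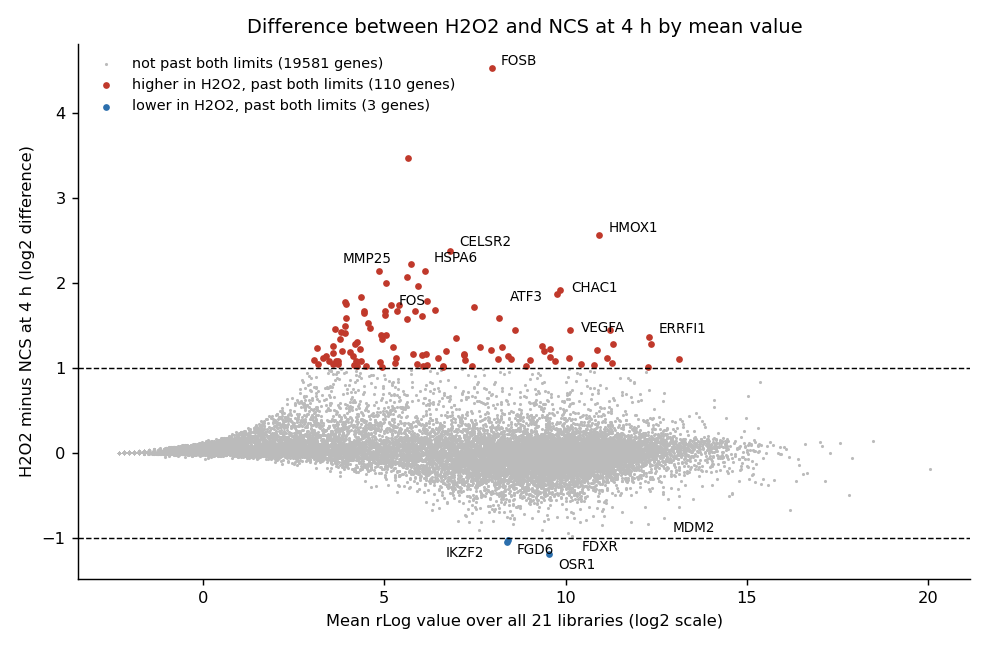
Log2 difference between H2O2 and NCS at 4 h (vertical axis) against the mean log2 value over all 21 libraries (horizontal axis), one point for each of the 19694 genes, with genes called higher in red, genes called lower in blue and dashed lines at a difference of 1 and -1. The 110 red points lie at means from low to high and reach 4.52 for FOSB, and the 3 blue points lie between -1.02 and -1.20.

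Grouped by known function, the largest median difference belonged to the targets of the integrated stress response, at 0.679, followed by early transcription factors at 0.537 and genes of G2 and mitosis at 0.483, against 0.00512 over all genes. At the other end were subunits and feedback genes of NF-kB at -0.236, p53 targets in metabolism at -0.208, genes of homologous recombination and the Fanconi pathway at -0.208, and p53 targets in DNA repair at -0.203. Peroxide-removing enzymes as a group stood close to all genes, with a median of 0.0547. Medians and counts over such lists describe their members and are not a test of the list. Counts stand beside 26.3% higher and 18% lower over all genes. Those shares varied with level, at 20.1% and 34.1% for genes with a mean from 9 to 11.

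**Figure D2:**
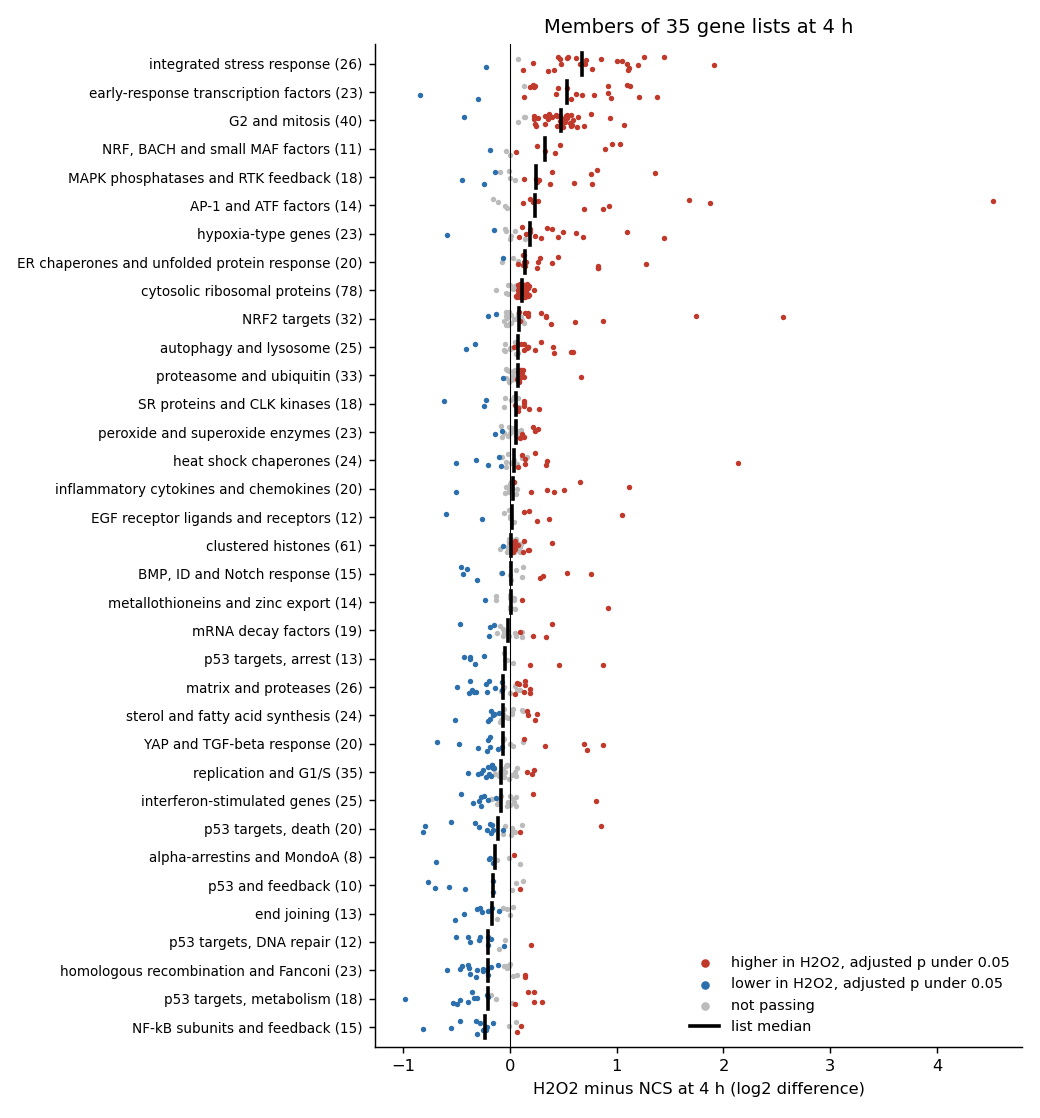
Log2 difference between H2O2 and NCS at 4 h (horizontal axis) for each member (points) of 35 gene lists (rows, with the number of members that varied), in red where higher, blue where lower and grey where the adjusted p-value did not pass, with a black bar at the list median. The integrated stress response list is at the top with a median of 0.679, and the NF-kB list at the bottom with -0.236.

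Promoter sequences of 5 genes are shown because, among list members with a promoter in the table, each has the strongest difference, in either direction, of those whose 250 bases before the start of the gene hold the DNA element of the factor known to drive that list. They are RefSeq sequences of GRCh38.p14, written 5′ to 3′ on the strand of the gene with the element in capitals, and matches on either strand counted. For CHAC1, at chr15:40953221-40953470 on the plus strand, the capitals mark the composite element of ATF4 and C/EBP factors, searched as TGATGNAA. For GCLM, at chr1:93909431-93909680 on the minus strand, they mark the antioxidant response element of NRF2, searched as TGACNNNGC. For HSPA6, at chr1:161524290-161524539 on the plus strand, they mark the heat shock element, inverted repeats of GAA bound by HSF1. For SLC30A1, at chr1:211579162-211579411 on the minus strand, they mark the metal response element of MTF1, searched as TGCACNC or TGCGCNC, and for FDXR, at chr17:74872995-74873244 on the minus strand, the p53 half-site.
CHAC1: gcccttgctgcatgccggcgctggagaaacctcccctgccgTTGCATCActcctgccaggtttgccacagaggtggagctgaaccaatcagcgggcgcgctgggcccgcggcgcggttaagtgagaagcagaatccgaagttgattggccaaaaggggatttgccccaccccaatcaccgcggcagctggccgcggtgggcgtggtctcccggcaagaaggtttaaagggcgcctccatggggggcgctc
GCLM: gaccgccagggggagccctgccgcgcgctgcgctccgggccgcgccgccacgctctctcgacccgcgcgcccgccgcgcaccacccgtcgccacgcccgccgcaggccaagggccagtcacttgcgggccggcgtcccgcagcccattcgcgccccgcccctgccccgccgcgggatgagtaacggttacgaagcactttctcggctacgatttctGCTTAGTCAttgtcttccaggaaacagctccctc
HSPA6: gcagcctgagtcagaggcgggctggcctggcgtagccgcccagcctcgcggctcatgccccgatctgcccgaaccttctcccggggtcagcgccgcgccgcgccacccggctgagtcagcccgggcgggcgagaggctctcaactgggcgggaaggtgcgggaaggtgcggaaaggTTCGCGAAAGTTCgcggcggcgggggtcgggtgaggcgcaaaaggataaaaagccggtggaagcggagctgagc
SLC30A1: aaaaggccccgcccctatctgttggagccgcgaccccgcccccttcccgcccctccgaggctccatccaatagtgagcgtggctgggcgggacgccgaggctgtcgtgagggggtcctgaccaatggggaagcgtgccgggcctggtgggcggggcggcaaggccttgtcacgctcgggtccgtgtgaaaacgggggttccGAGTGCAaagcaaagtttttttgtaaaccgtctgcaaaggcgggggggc
FDXR: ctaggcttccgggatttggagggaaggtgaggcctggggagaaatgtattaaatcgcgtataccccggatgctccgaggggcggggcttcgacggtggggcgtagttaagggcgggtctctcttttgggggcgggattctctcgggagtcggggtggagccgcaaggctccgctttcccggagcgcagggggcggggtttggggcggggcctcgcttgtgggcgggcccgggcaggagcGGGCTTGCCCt

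The first printed base of the element lay 209 bases before the start in CHAC1, 34 in GCLM, 74 in HSPA6, 49 in SLC30A1 and 11 in FDXR. By size of difference CHAC1 led its 26 list members, HSPA6 led 24, SLC30A1 led 14 and FDXR led 73 p53 targets, while GCLM held rank 6 of 32 NRF2 targets, of which HMOX1, the leading one, had no promoter in the table. None of the AP-1 genes with a promoter in the table held the AP-1 element TGACTCA in this window. Of the 113 called genes, 67 could be matched to a promoter, and 65 of these were called higher. The ATF4 and C/EBP element was present in 4 of the 65 (6.15%), namely AOC2, ATF3, CHAC1 and HERPUD1, against 1.91% of the 12579 tested genes with a promoter and 3.14% of all 35116 promoters in the table. AP-1 elements were in 3 of the 65 (4.62%), against 3.05% and 4.2% of these backgrounds, and the heat shock element in 1 (1.54%), HSPA6, against 0.374% and 0.441%. Antioxidant response elements were in 9.23% against 11.7% and 10.9%, the cyclic AMP response element TGACGTCA in 1.54% against 2.42% and 1.65%, and metal response elements in 26.2% against 30.8% and 24.8%. For p53 half-sites the shares were 4.62%, 4.83% and 5.57%, for NF-kB elements 10.8%, 11.6% and 9.96%, and for CArG boxes 0%, 1.08% and 1.16%. These matches describe letters in a short window and say nothing of binding.

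The AP-1 and ATF factors, dimeric transcription factors that MAP kinases raise and activate, gave the largest single difference. FOSB read 12.16, 11.64 and 11.62 in the H2O2 replicates and 7.32, 7.37 and 7.16 in the NCS replicates, a difference of 4.52 (SE 0.11, adjusted p = 2.02e-15). All H2O2 values lay far above the NCS values, which lay slightly above the untreated mean of 6.93. ATF3, a stress-induced factor of the same family, read 11.68, 11.66 and 11.65 after H2O2 and 9.78, 9.80 and 9.80 after NCS, and differed by 1.87 (SE 0.05, adjusted p = 1.1e-14). Here both treatments stood above untreated cells, by 3.45 and 1.58, and H2O2 stood higher. FOS, the founding partner of JUN, read 7.82, 7.58 and 7.53 after H2O2 and 5.96, 5.94 and 5.99 after NCS, a difference of 1.68 (SE 0.08, adjusted p = 1.39e-11). Against untreated cells FOS was higher after H2O2 (0.76) and lower after NCS (-0.92). JUN did not follow them, with 11.39, 11.24 and 11.26 after H2O2 and 11.42, 11.42 and 11.37 after NCS, a difference of -0.11 that did not pass (adjusted p = 0.14), although without H2O2 replicate 1 it was -0.16 with an adjusted p of 0.0457. Of the 14 members, 10 were higher, none was lower and 3 were called (FOSB, ATF3 and FOS), with a median of 0.238, and quantile normalization gave 8 higher and 1 lower. The others that passed included JUNB (0.93), JDP2, a repressor of AP-1 (0.87), JUND (0.69), ATF2 (0.22) and FOSL1 (0.19). The FOSB gene overlaps ERCC1 on the opposite strand, and the strand setting of the counting is not stated.

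Other immediate early transcription factors, which growth factors and stress switch on without new protein synthesis, were also higher after H2O2. Of 23, 20 were higher, 2 lower and 4 called, with a median of 0.537 that was 0.492 after quantile normalization. The called genes were the nuclear receptors NR4A3 (1.38) and NR4A1 (1.10), the clock-linked repressor BHLHE40 (1.21) and CSRNP1 (1.13). EGR1, a direct target of ERK signalling through serum response factor, read 10.97, 10.71 and 10.80 after H2O2 and 9.83, 9.90 and 9.99 after NCS, so that every H2O2 value was the higher one, with a difference of 0.92 (SE 0.08, adjusted p = 2.7e-08). Both treatments were nonetheless below the untreated mean of 11.26, by -0.43 and -1.35. EGR3 (0.95), KLF4 (0.92), KLF10 (0.79), IER3 (0.68) and MYC (0.58) were higher as well. The exceptions were KLF2, a flow- and ERK5-responsive factor, at -0.84 (adjusted p = 1.63e-08), and SRF at -0.29.

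Genes that feed back on receptor and MAP kinase signalling were divided. ERRFI1, an inhibitor that binds the EGF receptor kinase, read 13.25, 13.24 and 13.25 after H2O2 and 11.90, 11.89 and 11.86 after NCS, a difference of 1.36 (SE 0.03, adjusted p = 3.6e-15). Its replicates were almost identical within each treatment, and NCS left it slightly below the untreated mean of 12.08. Of 18 members 11 were higher, 3 lower and ERRFI1 alone was called, with a median of 0.249. DUSP8 (0.82), DUSP16 (0.76) and DUSP10 (0.60), phosphatases that act on JNK and p38, were higher, as were SPRY2 (0.77) and DUSP1 (0.39). DUSP6, the phosphatase of ERK, ran the other way, with 8.28, 8.23 and 8.37 after H2O2, 8.74, 8.78 and 8.69 after NCS and an untreated mean of 9.14, a difference of -0.44 (SE 0.04, adjusted p = 2.09e-07). DUSP5, also a phosphatase of ERK, differed by 0.00 (adjusted p = 0.948). Among 12 EGF receptor family genes and ligands, 5 were higher and 2 lower, with a median of 0.0201, and quantile normalization gave 3 of each. HBEGF, a ligand of the EGF receptor, was called, with 12.34, 12.40 and 12.47 after H2O2, 11.34, 11.37 and 11.33 after NCS and a difference of 1.05 (SE 0.04, adjusted p = 5.15e-13). EREG (0.37) and EGFR itself (0.13) were slightly higher, while NRG1, the ligand of ERBB3 and ERBB4, was lower by 0.60 and ERBB2 by 0.26.

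**Figure D3:**
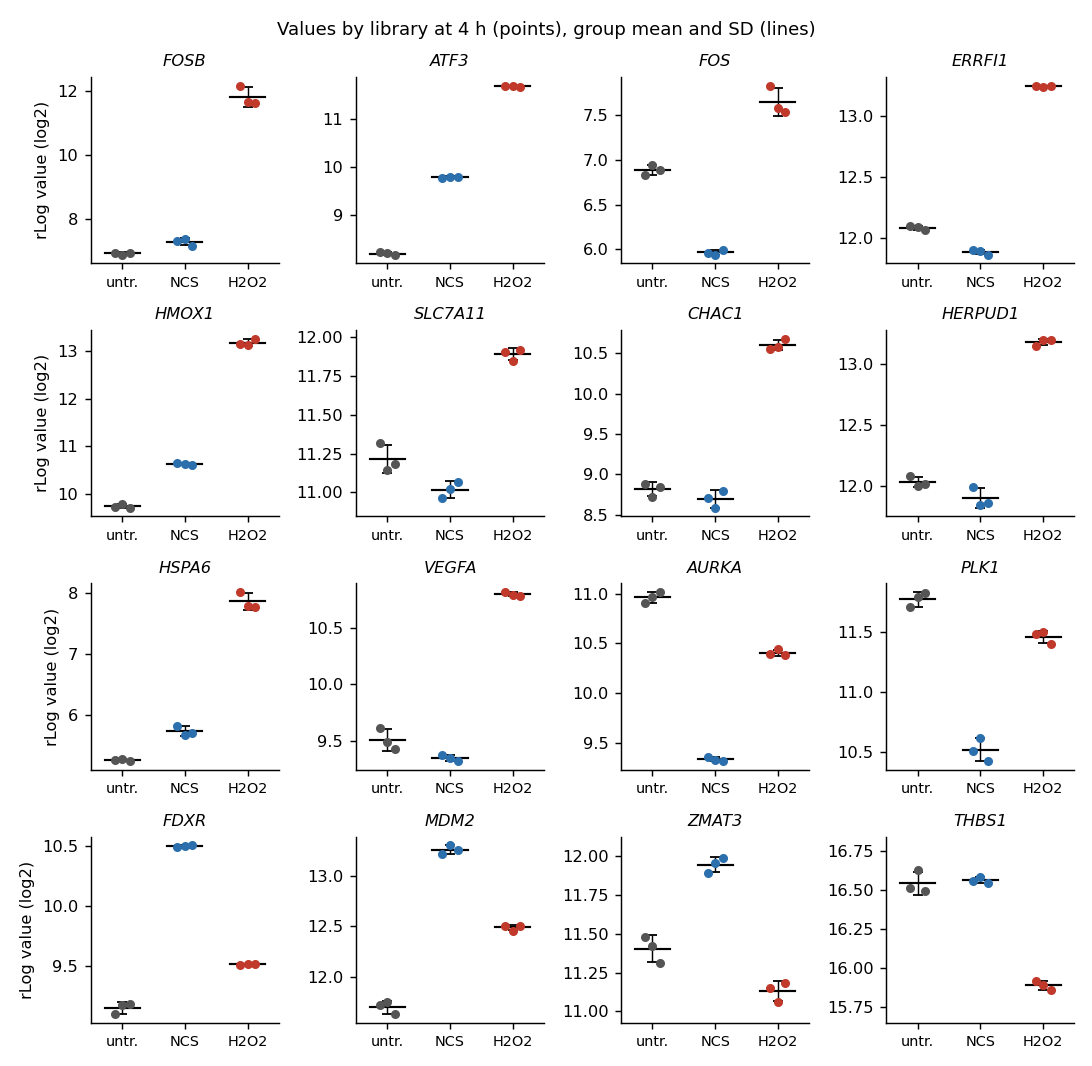
Log2 values of 16 genes in each library (points) of untreated cells, NCS at 4 h and H2O2 at 4 h, with the group mean and SD as lines and a vertical scale of its own for each gene. FOSB, HMOX1, CHAC1, HSPA6 and VEGFA separate H2O2 from both other groups, AURKA and PLK1 are lowest after NCS, and FDXR and MDM2 are highest after NCS.

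HMOX1, the heme-degrading enzyme induced by oxidants, was the clearest redox gene. It read 13.16, 13.13 and 13.27 after H2O2 and 10.65, 10.64 and 10.60 after NCS, a difference of 2.56 (SE 0.05, adjusted p = 1.32e-15). The untreated mean was 9.74, above which H2O2 stood by 3.44 and NCS by 0.88. The rest of the 32 NRF2 targets were less uniform, as 13 were higher, 2 lower and only HMOX1 and the efflux pump ABCC2 (1.74) were called, with a median of 0.0821. ABCC2 was of low level, with a mean value of 5.40, and stood at 6.74 after H2O2 and 5.00 after NCS. SLC7A11, the cystine importer that supplies glutathione synthesis and is also a target of ATF4, read 11.91, 11.85 and 11.92 after H2O2 and 10.96, 11.02 and 11.07 after NCS, with all H2O2 values above and a difference of 0.87 (SE 0.05, adjusted p = 7.52e-11). UGDH (0.61), the sulfiredoxin SRXN1 (0.38), the glutamate-cysteine ligase subunit GCLM (0.34, adjusted p = 7.03e-07) and the thioredoxin reductase TXNRD1 (0.33) were higher. NQO1, often used as a reporter of NRF2, differed by 0.04 (adjusted p = 0.443) and the catalytic ligase subunit GCLC by 0.11 (adjusted p = 0.13), while ABCC1 was lower by 0.21. Of 23 peroxide-removing and thiol enzymes, 6 (26.1%) were higher and 2 (8.7%) lower, beside 26.3% and 18% over all genes. Among those that differed were GLRX (0.26), GPX8 (0.21) and catalase (CAT, -0.14).

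The factors that bind the antioxidant response element differed more than most of its targets. Of 11 genes of the NRF, BACH and MAF families, 8 were higher and 1 lower, with a median of 0.328. MAFG, a small MAF protein that pairs with NRF2 or BACH1, was called, with 11.55, 11.59 and 11.54 after H2O2, 10.55, 10.54 and 10.48 after NCS and a difference of 1.04 (SE 0.03, adjusted p = 1.86e-14). Its replicates were separated by more than any spread within a group, but the gene overlaps SIRT7 on the same strand. The other small MAF genes, MAFF (0.96) and MAFK (0.89), were higher by nearly as much, and NFE2L2, the gene of NRF2, and its competitor BACH1 were higher by 0.47 and 0.42. TXNIP, an alpha-arrestin that binds thioredoxin and curbs glucose uptake, was lower, with 9.15, 9.16 and 9.10 after H2O2, 9.83, 9.84 and 9.82 after NCS and a difference of -0.69 (SE 0.06, adjusted p = 2.31e-08). Both treatments lay below its untreated mean of 10.33, H2O2 further than NCS. Of the 8 alpha-arrestin genes, 1 was higher and 4 were lower, with a median of -0.138.

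Targets of the integrated stress response were higher after H2O2 almost without exception. Of 26, 24 were higher and 1 lower, 9 were called, and the single lower gene was ATF5 (-0.22). CHAC1, which degrades glutathione, read 10.56, 10.57 and 10.68 after H2O2 and 8.71, 8.58 and 8.79 after NCS, a difference of 1.91 (SE 0.10, adjusted p = 5.31e-11). NCS left it around the untreated mean of 8.82, and no replicate of the treatments overlapped. ATF4, the factor itself, read 13.69, 13.69 and 13.73 after H2O2 and 12.63, 12.60 and 12.59 after NCS, a difference of 1.10 (SE 0.06, adjusted p = 5.14e-11), with the untreated mean at 12.79 between them. The other called members were the mTOR inhibitor DDIT4 (1.45), the death-linked factor DDIT3, also known as CHOP (1.26), CEBPB (1.20), CEBPG (1.12), the lipoprotein receptor VLDLR (1.10), the pseudokinase TRIB3 (1.05) and PPP1R15A (1.01), which brings the phosphatase to eIF2. Enzymes of serine, asparagine and folate metabolism were higher by less, with PSAT1 at 0.86, ASNS at 0.71, MTHFD2 at 0.66 and PHGDH at 0.45, and CTH differed by 0.07 (adjusted p = 0.472). DDIT3 overlaps MARS and MBD6 on the opposite strand, where reads of the strands may have been counted together, as for FOSB.

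Endoplasmic reticulum chaperones and other genes of the unfolded protein response, which answers misfolded proteins in that compartment, were higher in 16 of 20 cases and lower in 1, with a median of 0.146. HERPUD1, a component of the degradation machinery of the membrane, was the called one, with 13.15, 13.19 and 13.19 after H2O2, 11.99, 11.85 and 11.86 after NCS and a difference of 1.27 (SE 0.05, adjusted p = 7.72e-13). HSPA5 (BiP, 0.83), XBP1 (0.83), DNAJB9 (0.82) and MANF (0.45) were higher. Cytosolic heat shock genes were mixed, with 8 of 24 (33.3%) higher, 5 (20.8%) lower and a median of 0.0426. Over all genes the shares were 26.3% and 18%. With quantile normalization 8 heat shock genes were higher and 7 lower. HSPA6, a strictly inducible HSP70, read 8.02, 7.79 and 7.78 after H2O2 and 5.81, 5.66 and 5.70 after NCS, a difference of 2.14 (SE 0.13, adjusted p = 3.15e-10), against an untreated mean of 5.25. All H2O2 values were well above the NCS values, but the near-identical copy HSPA7 makes the assignment of its reads uncertain. The major inducible genes HSPA1A and HSPA1B, themselves near-identical, differed by only 0.06 (adjusted p = 0.469) and 0.16 (adjusted p = 0.0983). BAG3 (0.35) and HSPB8 (0.34) were higher, and the constitutive HSPA8 (-0.32) and HSPA4L (-0.50) lower.

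Hypoxia-type genes were mostly higher after H2O2, while of the metal-responsive genes few differed. Of 23 hypoxia genes, 15 were higher and 2 lower, with a median of 0.187 and 2 called. VEGFA, the vascular growth factor, read 10.82, 10.79 and 10.78 after H2O2 and 9.38, 9.35 and 9.32 after NCS, a difference of 1.45 (SE 0.06, adjusted p = 1.07e-12), with the untreated mean of 9.51 near the NCS values. The hexokinase gene HK2 (1.09) was also called, SLC2A3 (0.69) and KDM3A (0.62) were higher, and PFKFB4 was lower by 0.59. Of 14 metallothionein and zinc transport genes, 2 were higher and 1 lower, with a median of 0.00751. SLC30A1, the zinc exporter of the plasma membrane, read 10.48, 10.46 and 10.53 after H2O2 and 9.60, 9.62 and 9.49 after NCS, a difference of 0.92 (SE 0.05, adjusted p = 1.55e-10). Both treatments were above its untreated mean of 8.31, H2O2 more so, whereas MT2A differed by 0.01 (adjusted p = 0.945) and MT1E by -0.23.

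Targets of p53 leaned toward NCS, but not all of them. In the list of p53 feedback genes, 6 of 10 were lower after H2O2 and 1 higher, with a median of -0.155 (5 and 3 with quantile normalization). MDM2, the ubiquitin ligase that removes p53, read 12.50, 12.46 and 12.51 after H2O2 and 13.21, 13.30 and 13.25 after NCS, a difference of -0.77 (SE 0.06, adjusted p = 4.07e-09). Every NCS value was above every H2O2 value, and both groups were above the untreated mean of 11.70. MDM4 (-0.42), TRIM22 (-0.57) and the AKT inhibitor PHLDA3 (-0.70) were lower after H2O2 too, and PPM1D, the phosphatase that ends the response, differed by 0.13 (adjusted p = 0.127).

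Metabolic and repair targets of p53 were mainly lower after H2O2. FDXR, a mitochondrial ferredoxin reductase, read 9.51, 9.51 and 9.52 after H2O2 and 10.49, 10.49 and 10.51 after NCS, a difference of -0.98 (SE 0.07, adjusted p = 2.99e-09) that fell just short of the limit of 1. Against untreated cells it was higher by 0.36 after H2O2 and by 1.34 after NCS. Of 18 metabolic targets 10 were lower and 5 higher, with PANK1 (-0.53), the sestrin SESN1 (-0.50) and C12orf5 (TIGAR, -0.46) among the lower ones. The related sestrin SESN2, a target of both p53 and ATF4 that was counted with the latter, was higher by 0.77. Of 12 repair targets 9 were lower and 1 higher, and the higher one, APAF1 (0.20), is a caspase activator rather than a repair protein. XPC, which recognizes distorted DNA in nucleotide excision repair, was lower without overlap, with 10.30, 10.20 and 10.30 after H2O2 and 10.70, 10.77 and 10.85 after NCS, a difference of -0.51 (SE 0.04, adjusted p = 4.23e-09). The polymerases REV3L (-0.39) and POLH (-0.38) and the ribonucleotide reductase subunit RRM2B (-0.28) were lower as well.

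Targets of p53 in cell death and arrest held both directions. Of 20 death genes 11 (55%) were lower and 2 (10%) higher, with a median of -0.109. Of 13 arrest genes 5 (38.5%) were lower and 3 (23.1%) higher, with a median of -0.047. Over all genes 18% were lower and 26.3% higher, and among genes with a mean from 9 to 11 the shares were 34.1% and 20.1%. ZMAT3, an RNA-binding protein, read 11.15, 11.06 and 11.18 after H2O2 and 11.89, 11.96 and 11.99 after NCS, a difference of -0.82 (SE 0.06, adjusted p = 1.5e-09). Its untreated mean of 11.40 lay between the groups, so that H2O2 was below untreated cells and NCS above them. PMAIP1, the BH3-only protein NOXA, was instead higher after H2O2, with 11.25, 11.15 and 11.34 against 10.38, 10.39 and 10.42, a difference of 0.85 (SE 0.07, adjusted p = 8.27e-09) without overlap. BBC3, the BH3-only protein PUMA, rose by 1.56 after H2O2 and by 1.45 after NCS, and the treatments differed by 0.11 (adjusted p = 0.172). TRAF4 (-0.79), PIDD (-0.55) and TP53I3 (-0.18) were lower. GADD45A, an arrest gene that stress kinases and ATF4 also raise, read 12.43, 12.39 and 12.49 after H2O2 and 11.53, 11.58 and 11.58 after NCS, so that H2O2 was above NCS in every replicate, with a difference of 0.87 (SE 0.05, adjusted p = 4.46e-10). CDKN1A, the p21 inhibitor of cyclin-dependent kinases, rose by 1.21 after H2O2 and 1.58 after NCS, and differed by -0.37 between them (adjusted p = 0.000438). BTG2 (-0.43) and TP53INP1 (-0.37) were lower in the same way, and ZNF385A was higher by 0.46.

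**Figure D4:**
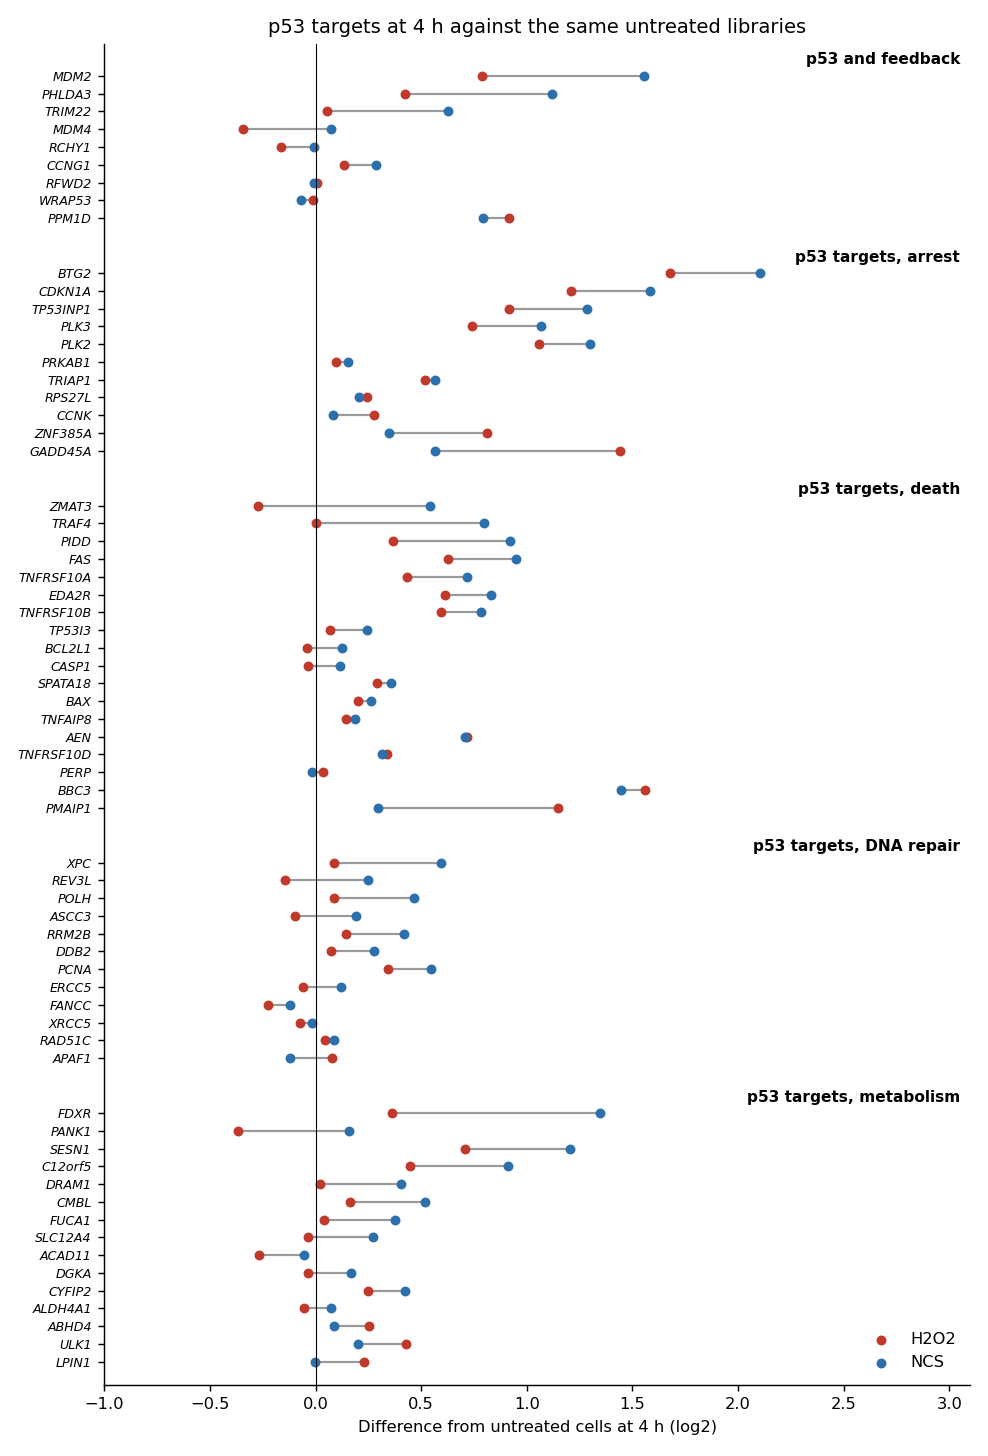
Difference from untreated cells at 4 h (log2, horizontal axis) for the 65 p53 targets and regulators with a mean value of at least 5, with H2O2 in red and NCS in blue joined by a line, grouped by role and ordered within a group by the difference between treatments. Both agents use the same 3 untreated libraries, and the length of the line is the difference between H2O2 and NCS, with NCS to the right for FDXR, ZMAT3 and MDM2 and H2O2 to the right for GADD45A and PMAIP1.

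Repair genes outside the p53 list were also lower after H2O2. Of 13 genes of end joining, none was higher and 8 were lower, with a median of -0.17, and of 23 genes of homologous recombination and the Fanconi pathway 14 were lower and 2 higher. PRKDC, the catalytic subunit of DNA-PK, read 12.96, 13.05 and 12.94 after H2O2 and 13.38, 13.40 and 13.44 after NCS, a difference of -0.43 (SE 0.04, adjusted p = 2.88e-08). ATR, the kinase of stalled replication forks, read 9.81, 9.95 and 9.86 and 10.31, 10.31 and 10.33, a difference of -0.45 (SE 0.04, adjusted p = 1.31e-07). In both genes the NCS values lay above the H2O2 values without overlap, and NCS differed from untreated cells by 0.02 and -0.01 while H2O2 was below them by 0.41 and 0.45. FANCB (-0.59), POLM (-0.51), EXO1 (-0.46), FANCA (-0.39), BRIP1 (-0.38) and PAXIP1 (-0.30) were lower, BRCA1 differed by -0.02 (adjusted p = 0.821), and CHEK1, a checkpoint kinase, was higher by 0.14.

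NF-kB is a family of inflammatory transcription factors that ATM activates after double-strand breaks. Of 15 of its subunits and feedback genes, 11 were lower after H2O2 and 2 higher. BIRC3, an inhibitor of apoptosis, read 8.03, 7.89 and 7.98 after H2O2 and 8.84, 8.72 and 8.76 after NCS, all NCS values being the higher ones, with a difference of -0.81 (SE 0.06, adjusted p = 4.65e-09). NFKBIE (-0.55), RELB (-0.47), NFKB2 (-0.31), TNFAIP3 (-0.31) and NFKBIA (-0.24) were lower by less. The higher genes were NFKBIZ (0.11) and RELA (0.07), and neither passed when H2O2 replicate 1, H2O2 replicate 3 or NCS replicate 1 was left out. Inflammatory cytokines did not follow, with 7 of 20 higher and 1 lower at a median of 0.0289, a balance that turned to 5 and 7 at -0.0358 with quantile normalization. TSLP, an epithelial cytokine, was called (1.11), and LIF (0.66), IL8 (0.51), PTGS2 (0.41) and IL11 (0.35) were higher, while CSF1 was lower by 0.50. Of 25 interferon-stimulated genes 8 (32%) were lower and 2 (8%) higher, with a median of -0.0812. Over all genes 18% were lower and 26.3% higher, and from 9 to 11 in mean value the shares were 34.1% and 20.1%. DDX58, the RNA sensor RIG-I, was lower by 0.46 and OAS3 by 0.35, whereas the exonuclease ISG20 was higher by 0.81.

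Genes of G2 and mitosis were below untreated cells after both treatments, and further below after NCS. The median of the 40 members was -0.42 against untreated cells after H2O2 and -0.92 after NCS, and between the treatments 36 were higher after H2O2 and 1 lower. AURKA, a kinase of the spindle poles, read 10.40, 10.44 and 10.39 after H2O2 and 9.36, 9.33 and 9.32 after NCS, a difference of 1.07 (SE 0.11, adjusted p = 1.8e-07), from an untreated mean of 10.96. PLK1, which drives entry into mitosis, read 11.48, 11.49 and 11.40 and 10.51, 10.62 and 10.43, a difference of 0.94 (SE 0.11, adjusted p = 7.83e-07), from 11.77. For both kinases the order was untreated, H2O2, NCS, with no overlap between treatments. NEK2 (0.76), the anaphase activator CDC20 (0.70) and cyclin B1 (CCNB1, 0.54) were higher, CCNF, the member that was lower, differed by -0.43, and MKI67 by 0.14 (adjusted p = 0.172). DNA replication and S phase genes did not share this pattern. Of 35, 13 (37.1%) were lower after H2O2 and 3 (8.57%) higher. Over all genes 18% were lower and 26.3% higher, and the shares were 34.1% and 20.1% among genes with a mean from 9 to 11. CDC6, the licensing factor, was at -0.39 (adjusted p = 3.35e-08), CCNE2 at -0.29 and RRM2 at -0.27, with RFC4 (0.21) and UNG (0.16) on the higher side. Of 61 histone genes 12 were higher and 1 lower with a median of 0.0158, which became 1 and 12 at -0.0183 with quantile normalization, and the polyadenylated HIST2H2BE was higher by 0.40.

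Genes of protein synthesis and turnover differed by small amounts. Of 78 ribosomal protein genes 59 were higher and none lower, with a median of 0.112 and with RPL13A at 0.23, and quantile normalization left 41 higher and 1 lower. Of 33 proteasome genes 14 were higher and 1 lower, with a median of 0.0731. Among 25 autophagy and lysosome genes 14 were higher and 2 lower, with MAP1LC3B at 0.59 and FNIP1 at 0.58. Of 18 SR proteins and CLK kinases, which steer splicing, 8 were higher and 3 lower, with CLK2 at -0.62, and among 19 genes of mRNA decay and deadenylation 4 (21.1%) were on each side, near the shares over all genes, with TOB1 at -0.46.

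Matrix and TGF-beta genes held members in both directions, beside shares of 26.3% higher and 18% lower over all genes. Among genes with a mean from 7 to 9 those shares were 16.1% and 32.8%, and from 9 to 11 they were 20.1% and 34.1%. THBS1, a matrix glycoprotein and target of YAP, read 15.91, 15.89 and 15.86 after H2O2 and 16.56, 16.59 and 16.55 after NCS, a difference of -0.68 (SE 0.06, adjusted p = 3.38e-08). The NCS values stayed at the untreated mean of 16.55 and the H2O2 values lay below it. Of 20 YAP and TGF-beta targets 9 were lower and 5 higher, the former with ANKRD1 (-0.47) and the latter with the TGF-beta antagonists TGIF1 (0.88), SMAD7 (0.73) and SKIL (0.70). Of 26 matrix genes 12 were lower and 8 higher, with COL1A1 at -0.49 (adjusted p = 4.66e-09) and COL5A1 at -0.38. Sterol and fatty acid synthesis had 7 of 24 lower and 4 higher, with fatty acid synthase (FASN) at -0.51. Of 15 genes of BMP, ID and Notch signalling 5 were lower, among them ID1 (-0.45) and NOTCH1 (-0.40), with a median of 0.0138, and 4 were higher, among them HEY1 (0.76) and HES1 (0.54).

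The 3 genes called lower after H2O2 belonged to none of these lists. OSR1, an odd-skipped zinc finger factor of mesenchymal development, read 8.75, 8.70 and 8.78 after H2O2 and 9.87, 9.97 and 9.98 after NCS, a difference of -1.20 (SE 0.05, adjusted p = 7.89e-12), and against untreated cells it was lower after H2O2 (-0.94) and higher after NCS (0.26). FGD6, a guanine nucleotide exchange factor, read 7.81, 7.86 and 7.85 and 8.86, 8.90 and 8.83, a difference of -1.02 (SE 0.04, adjusted p = 2.12e-12), with the same pattern against untreated cells (-0.37 and 0.66). IKZF2, the zinc finger factor Helios, read 7.56, 7.65 and 7.58 and 8.59, 8.64 and 8.71, a difference of -1.05 (SE 0.09, adjusted p = 1.48e-08), from an untreated mean of 8.82 that lay above both. In all 3 the replicates of the treatments were apart by more than the range within a group.

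Among the largest differences toward H2O2 were genes of low level, several of them best known from other tissues. CELSR2, an adhesion cadherin of planar polarity, read 8.81, 8.86 and 8.79 after H2O2 and 6.44, 6.48 and 6.43 after NCS, a difference of 2.37 (SE 0.06, adjusted p = 2.02e-15), and MMP25, a membrane metalloproteinase of leukocytes, 7.50, 7.45 and 7.51 and 5.29, 5.34 and 5.19, a difference of 2.21 (SE 0.06, adjusted p = 3.71e-15). All H2O2 values of both genes lay above every NCS value, and the untreated means were 6.28 and 5.26. AOC3 (2.14), PDE4C (2.07), KIAA1683 (1.99), ITGA7 (1.96), COL20A1 (1.83), ACAP1 (1.79), ACCN4 (1.77), ITGAM (1.74) and DBIL5P (1.74) followed, all with a mean under 7. Genes outside the lists with a mean of 7 or more included CORO2A (1.72), the small GTPase GEM (1.59), the peptide ADM2 (1.44), the phosphatase subunit PPP1R10 (1.28) and LURAP1L (1.24).

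Many of the low genes lie just downstream of another expressed gene on the same strand. Gene positions came from GENCODE release 29 on GRCh38 and were used only for the order and spacing of genes, since the deposited values were made on another build. Of the 62 low genes (mean value under 7) called higher that had a position, 26 (41.9%) began within 20 kb downstream of the end of an expressed gene. The same held for 22% of 3278 tested genes with a mean from 2 to 7, for 15% of all tested genes with a mean under 7, and for 8 of 36 (22.2%) called genes with a mean of 7 or more. COL20A1 begins 3.39 kb downstream of ARFGAP1, AOC3 7.43 kb downstream of PSME3, ITGA7 9.28 kb downstream of CD63, CELSR2 11.8 kb downstream of SARS and MMP25 18.9 kb downstream of THOC6. Over all genes with a mean from 2 to 7, those within 20 kb downstream had a median difference of 0.119 with 47.4% higher and 9.02% lower, and those elsewhere 0.043 with 29% and 9.07%. These shares hold for the deposited scale only. With quantile normalization 21.1% of all genes with a mean from 2 to 5 were higher and 32.6% lower. From 5 to 7 the shares were 19.3% and 27.7%. The split by position was not repeated with that scaling. The 25 upstream genes themselves had a median difference of 0.0345, with 8 higher, 6 lower and 1 called (HERPUD1). Of those in the pairs above, THOC6 (0.83), SARS (0.28) and CD63 (0.14) were higher, and PSME3 (-0.08) and ARFGAP1 (-0.08) were lower. Whether reads of these low genes came from their own promoters was not tested, and values per gene cannot show where along a gene the reads lie.

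Fewer genes differed between the treatments at 8 h and fewer again at 24 h, although some lists differed more at the later times. At 8 h 31 genes (0.157%) were called higher after H2O2, and by adjusted p alone 3679 (18.7%) were higher and 3042 (15.4%) lower. At 24 h the counts were 3 (0.0152%), 2171 (11%) and 2144 (10.9%). Of the 31 genes called at 8 h, 15 had been called at 4 h, which is 48.4% of the 8 h calls and 13.6% of the 4 h calls, and the 3 called at 24 h (DHRS2, G0S2 and UNC5B) had not. Across genes the differences at 4 and 8 h correlated at 0.433 and those at 4 and 24 h at 0.125, a description over 19694 genes that share libraries at each time and are not independent replicates. The 110 genes called higher at 4 h had a median difference of 1.23 then, 0.526 at 8 h and 0.0435 at 24 h. Because they were chosen by their 4 h difference, which also enters the change, part of that fall follows from the choice. By adjusted p, 102 of them were still higher at 8 h and 1 was lower, and at 24 h 33 were higher and 5 lower. Of those with a mean of 7 or more the median was 0.341 at 24 h, and of the low ones 0.011.

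**Figure D5:**
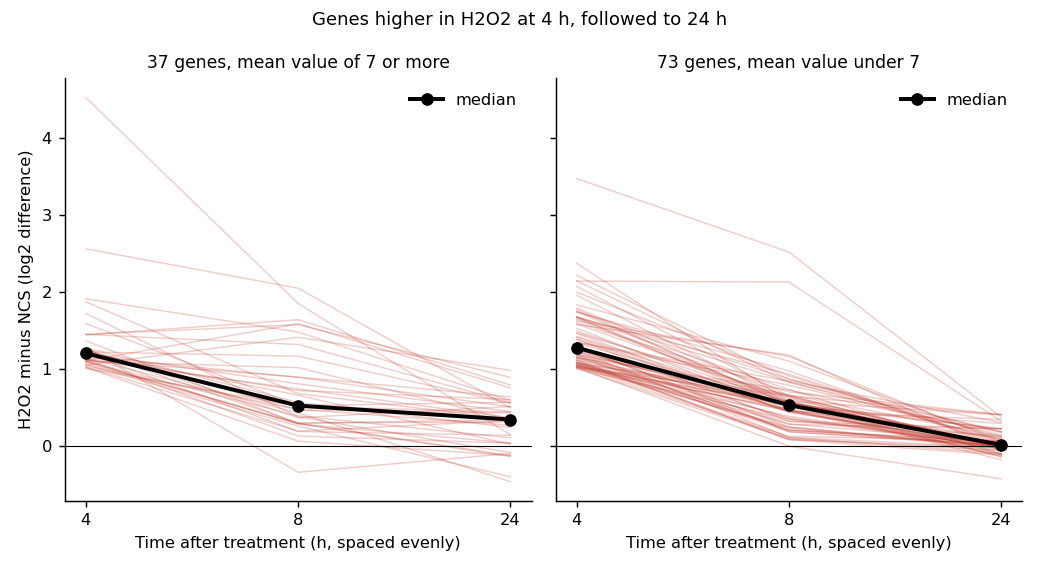
Log2 difference between H2O2 and NCS (vertical axis) at 4, 8 and 24 h (horizontal axis, spaced evenly) for the 37 genes called higher at 4 h with a mean value of 7 or more (left) and the 73 with a lower mean (right), each a thin line, with the median in black. The medians fall from 1.2 and 1.27 to 0.521 and 0.528, and at 24 h they are 0.341 and 0.011.

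Tested directly, the difference changed by more than 1 in 44 genes (0.223%) from 4 to 8 h and in 111 genes (0.564%) from 4 to 24 h. By adjusted p alone it became more positive in 2897 genes (14.7%) and more negative in 3551 (18%) by 8 h, and in 3278 (16.6%) and 4472 (22.7%) by 24 h. These shares moved with the scaling, since the share that became more positive was 44.9% of the changes at 8 h and 42.3% at 24 h as deposited, 62% and 28.4% with library medians aligned, and 48.6% and 51.7% with quantile normalization. Early transcription factors had a median difference of 0.537 first, then of 0.145 after 8 h and of 0.0944 after 24 h. FOSB differed by 1.85 at 8 h and 0.14 at 24 h, ERRFI1 by 0.29 and -0.14, and PPP1R10 by -0.34 already at 8 h. Several redox and amino acid genes had larger differences at 8 h instead. TXNRD1 went from 0.33 to 1.20 (adjusted p of the change = 1.44e-07), GCLM from 0.34 to 0.80 and SLC7A11 from 0.87 to 1.00 (adjusted p of the change = 0.155), and HMOX1 and HSPA6 still differed by 2.05 and 2.13. NQO1, which did not differ detectably at 4 h, differed by 0.47 at 8 h and 0.81 at 24 h. In the integrated stress response the median difference was 0.679, then 0.902 and then 0.51 through the time course, with PSAT1 going from 0.86 to 1.49 (adjusted p of the change = 3.94e-05), ASNS from 0.71 to 1.31 and MTHFD2 from 0.66 to 1.29 by 8 h. By adjusted p at 24 h, 22 of 24 sterol and fatty acid genes were lower and none higher, with a median of -0.435, and 23 of 32 NRF2 targets were higher and 1 lower, with a median of 0.242, against 11% higher and 10.9% lower over all genes. MDM2, at -0.77 first, stood at 0.26 after 8 h and 0.24 after 24 h, a change of 1.02 by 8 h (adjusted p = 4.2e-08) with the treatments in opposite order.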

How the data were processed

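Poly(A) RNA from hTERT-HPNE cells was sequenced by the study as stranded paired-end libraries. Per the submitters' processing notes and the study's methods, reads were aligned with HISAT2 to hg19 and counted with HTSeq, and the deposited values are log2 expression values that the authors made from the counts with DESeq2's rLog transformation over all 21 libraries. Versions and the strand setting of the counting are not given in the sources used here. These values were used without further normalization. The 3674 genes at 0 in every library were left out, and 28 gene names had been turned into dates. Groups came from the sample titles. All 7 groups were fitted together with limma 3.58.1 in R 4.3.3 (mean-variance trend, Benjamini-Hochberg adjustment over 19694 genes), and the difference between H2O2 and NCS at 4 h, and its change at 8 and 24 h, were taken as contrasts. The procedure was tested on simulated data in which differences were planted only in genes with a mean value of at least 7. That test does not cover the calling of genes of lower level. Lists, promoters and figures were handled in Python 3.11.15 (matplotlib 3.10.9, numpy 2.4.6 and pandas 2.3.3).

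A gene could be named if it was in a gene list, was discussed by the study, was among the 20 largest called differences above or below 0 with replicates that did not overlap, or among the 15 largest of that kind with a mean value of at least 7. Genes upstream of called genes and the genes called at 24 h were named after their values were seen. Some genes that met the rule are not reported here. The lists and rules were chosen with earlier results of these data known. Alternatives were library medians aligned, quantile normalization, mean values of at least 5 or 7, a log2 limit of 0.58, the adjusted p alone, the compared groups alone, no trend, the replicate number as a block and each replicate left out. Promoters were RefSeq sequences on GRCh38.p14 matched by symbol for 12579 of the tested genes, and positions were those of GENCODE release 29, matched by symbol for 17098.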

Additional observations from a re-analysis of the deposited data

Results flagged for a closer look

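The size of the difference between H2O2 and NCS changed with time in 37 named genes by a test of the change itself, in which limma compared the difference at 8 or 24 h with that at 4 h. Each passed an absolute change over 1 with an adjusted p-value under 0.05, the largest of these p-values being 1.65e-05, and a negative change means that H2O2 moved down relative to NCS after 4 h. The genes were named largely for their 4 h difference, which also enters the change.

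By 8 h the difference had changed in early transcription factors, namely FOSB (-2.67), ATF3 (-1.19), NR4A3 (-1.06), BHLHE40 (-1.02) and CSRNP1 (-1.0), and in feedback and cytokine genes, namely ERRFI1 (-1.07), DUSP8 (-1.04), LIF (-1.02) and TSLP (-1.03). Among expressed genes outside the lists these were CORO2A (-1.34), GEM (-1.07) and PPP1R10 (-1.62). NR4A3 and TSLP had mean values under 7, and other genes of low level were ACAP1 (-1.16), ACCN4 (-1.24), AOC3 (-1.32), CELSR2 (-1.79), ITGA7 (-1.40), ITGAM (-1.19), KIAA1683 (-1.09), MMP25 (-1.35) and PDE4C (-1.42). Among the named genes MDM2 alone had a positive change past these limits by 8 h (1.02), as it was lower after H2O2 at 4 h and higher at 8 h.

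By 24 h the change reached FOSB (-4.38), FOS (-1.61), ATF3 (-1.52), NR4A3 (-1.16), BHLHE40 (-1.07), CSRNP1 (-1.09) and EGR3 (-1.03) among AP-1 and early transcription factors, and ERRFI1 (-1.50), DUSP8 (-1.21), HBEGF (-1.46), LIF (-1.16) and TSLP (-1.23) among signalling genes. Stress targets followed with HMOX1 (-2.06), ABCC2 (-1.62), CHAC1 (-1.32), HERPUD1 (-1.04), HSPA5 (-1.06), HSPA6 (-1.82) and HK2 (-1.22), while CORO2A (-1.81), GEM (-1.02), PPP1R10 (-1.38) and HIST2H2BE (-1.02) belonged to other groups. Of the genes just given, FOS, NR4A3, TSLP, ABCC2 and HSPA6 had mean values under 7. Other genes of low level with such a change were ACAP1 (-1.90), ACCN4 (-1.78), AOC3 (-1.96), CELSR2 (-1.97), COL20A1 (-1.75), DBIL5P (-1.74), ITGA7 (-2.09), ITGAM (-1.74), KIAA1683 (-1.97), MMP25 (-2.04) and PDE4C (-1.67). Positive changes by 24 h were those of FDXR (1.14), MDM2 (1.01) and KLF2 (1.13), which had all been lower after H2O2 at 4 h.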

How the results depend on the processing

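The 113 genes called at 4 h (110 higher and 3 lower after H2O2) compare with counts of 113 with library medians aligned, with the 6 libraries fitted alone and without a mean-variance trend, and of 97 with quantile normalization. Requiring a mean value of at least 5 left 72 (69 higher) and of at least 7 left 40 (37 higher), since fewer genes entered. A limit of 0.58 gave 517 (421 higher, 96 lower), and the adjusted p alone gave 8738 (5184 and 3554). Without single replicates the count ran from 109 to 116, with 106 to 113 higher and 3 lower throughout. The 44 genes whose difference changed by 8 h (11 up, 33 down) became 22 (11 down) at a mean of at least 7, 480 (241 and 239) at 0.58, and 6448 (2897 and 3551) by adjusted p alone. Without single replicates they ran from 42 to 53, with 8 to 18 up and 31 to 36 down, and the 18 came without H2O2 8 h replicate 2. The 111 changed by 24 h (8 up, 103 down) became 69 (61 down) and 34 (27 down) at means of at least 5 and 7, 617 (209 and 408) at 0.58, and 7750 (3278 and 4472) by adjusted p alone, and ran from 107 to 114 without single replicates, with 6 to 10 up and 100 to 106 down.

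Of 455 recomputed list medians 32 moved by more than the spread between replicates. Of 980 recomputed list counts 143 moved by more than a set ratio. Among these, 13 came with quantile normalization, 38 without single replicates, and 25 and 35 with the limit of 0.58 and the adjusted p alone. Among 190 named genes, the 9 sign changes of 2437 values fell on genes that had not passed the test. With quantile normalization BRCA1 was at 0.0201, CTH at -0.0157, DUSP5 at -0.04, MT2A at 0 and NQO1 at -0.000677. Without single replicates DUSP5 ran from -0.0151 to 0.0191 and MT2A from -0.059 to 0.0831. The differences of BBC3, GCLC, PPM1D and MKI67 passed only when the 6 libraries were fitted alone or after quantile normalization. In 13 of the 2437 values a gene that had passed no longer did, and 9 of these came without single replicates.

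The replicate numbers did not pair the samples, as the correlations of same-numbered deviations were -0.0118, -0.0462 and 0.111. A fit with the replicate number as a block called 113 genes at 4 h, all of them called without it, 44 and 111 changed genes at 8 and 24 h, and HSPA1B passed with it (adjusted p = 0.0422).

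No counts were analysed, so precision at low levels could not be set against depth, and rLog shrinkage makes differences of low genes smaller than they were in reads. With 3 libraries a group an exact permutation test cannot fall below 0.1, and p-values rest on the spread pooled over 7 groups.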
